A study of Mus musculus with 48 samples.

Results

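The replication-dependent core histone genes of the mouse are described here in liver RNA. They were taken as every row of the count table whose symbol has the form H2ac, H2bc, H3c or H4c with a number, or an older Hist1h, Hist2h or Hist3h name. This gave 59 of 29331 genes: 18 H2A, 17 H2B, 12 H3 and 12 H4 genes. The livers came from male wild type mice in 2 arms, NC (negative control) and LPS (lipopolysaccharide, a component of bacterial outer membranes, given continuously for 7 days). Day 7 covered both arms every 4 h from ZT1 to ZT21, where ZT is Zeitgeber time in hours. Further LPS livers, all from ZT21, represent days 3 and 5, while LPS was given, and days 9 and 11, once it had stopped. There were 16 groups of 3 libraries, 48 in all. The labels call the libraries biological replicates without saying that each came from another mouse, so p-values below reflect the spread of these libraries, which may be technical. The sources used here do not give strain, age, dose, route or the vehicle of NC. Each comparison of days 3, 5, 9 and 11 used the day-7 NC libraries, the NC group sampled at ZT21.

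Core histones H2A, H2B, H3 and H4 form the protein spool around which DNA is wound. Cells that copy their DNA need large amounts of new histone, and the replication-dependent genes, grouped in clusters with many near-identical copies, supply it during S phase. Their messenger RNAs typically carry no poly(A) tail. They end instead just after a short stem-loop, which is bound by the protein encoded by Slbp and controls processing and decay. Oligo(dT) capture, used to make these libraries, enriches RNA with a poly(A) tail. The counts below therefore describe the histone RNA that reached an oligo(dT) library, not all histone RNA in the liver. Adult hepatocytes seldom divide, and some replication-dependent genes are also known to give polyadenylated RNA outside S phase. A lower level in a liver piece can come from fewer cells of a type or from less RNA per cell, which cannot be told apart in bulk RNA.

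All 59 genes were found in the GENCODE annotation of GRCm38, 49 on chromosome 13 and 10 on chromosome 3. The annotation calls H2ac14 and Hist1h2al pseudogenes. A stem-loop was searched for after the stop codon as an inverted repeat with 6 paired bases and a loop of 4 bases. It was found in 39 genes, beginning 21 to 58 bases past the stop codon. The stems differed between families, as these 4 examples show, with the paired bases in capitals, read 5′ to 3′ on the strand of the gene. H4c8 and H4c9 are shown because they had the smallest p-values in the comparison of LPS with NC, H4c11 for its differing stem, and H2ac19 as the most abundant gene with a stem-loop.
H4c8 (chr13:23531458-23531473, + strand): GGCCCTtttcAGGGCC
H4c9 (chr13:22040966-22040981, − strand): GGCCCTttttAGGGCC
H4c11 (chr13:21735437-21735452, + strand): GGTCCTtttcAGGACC
H2ac19 (chr3:96239784-96239799, − strand): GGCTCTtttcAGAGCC

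The stem of H2ac19 was the form found in all 10 H2A, 9 H2B and 9 H3 genes that had a stem-loop. None of the 11 H4 genes with a stem-loop had it: 9 had the stem of H4c8 and H4c9, and 2, H4c11 and H4c2, had that of H4c11. The annotated transcript ran for 100 or more bases beyond the stem-loop in 16 genes and ended within 100 bases of it in 23. In 4 H2B genes, H2bc4, H2bc21, Hist1h2bq and Hist1h2br, 100 or more bases follow the stop codon and no stem-loop was found there. The other 16 genes comprised 11 with a transcript model that stops at the stop codon, 2 that stop within 20 bases of it, the 2 pseudogenes, and H3c13, with 37 bases after the stop codon and no stem-loop found. A missing match says only that these letters are not in the annotated window.

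Promoters also differed between families. RefSeq promoter sequences of GRCm38.p6 matched 52 of the 59 genes, with 53 windows, and were searched over the 250 bases before the start, on both strands. The 3 motifs searched were the CCAAT box (CCAAT), the TATA box (TATAAA) and the octamer (ATTTGCAT). The CCAAT box was found in 16 of 16 H2A, 16 of 16 H2B, 8 of 10 H3 and 3 of 11 H4 windows, against 33.85% of 32851 promoters of all genes. The octamer stood in 5 H2A and 7 H2B windows and in 0 H3 and 0 H4 windows, against 1.601% of all promoters. The TATA box was found in 23 windows, or 43.396%, against 12.368%. Because 12 pairs of an H2A and an H2B gene lie head to head with starts 163 to 267 bases apart, windows of such partners overlap. Stretches of 100 bases upstream of H2ac6 and of H4c8 are given, with the searched motifs in capitals. The window of H2ac6 lies between H2ac6 and H2bc4, the most abundant gene of the set, and the window of H4c8 belongs to the gene with the smallest p-value and holds none of the 3 motifs.
H2ac6 (chr13:23683960-23684059, − strand): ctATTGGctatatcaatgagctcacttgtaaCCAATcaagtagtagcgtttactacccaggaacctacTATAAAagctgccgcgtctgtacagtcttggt
H4c8 (chr13:23530944-23531043, + strand): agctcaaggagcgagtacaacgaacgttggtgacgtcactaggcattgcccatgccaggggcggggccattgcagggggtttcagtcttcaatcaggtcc

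Library totals ran from 28.2 to 45.3 M counts. Hepatocyte markers such as Alb summed to 77110 to 129300 CPM over the 48 libraries, where CPM is the count scaled to the size of the library with TMM factors. The filter on low counts left 35 of the 59 genes to test, and none of the 24 others exceeded 24 counts in a library. In the NC libraries alone 26 of the 35 would have passed, so 9 entered only because of their level in LPS. Earlier results of these data set apart 4 LPS libraries of day 7: ZT1 replicate 2, ZT13 replicate 2, and ZT21 replicates 1 and 3.

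Histone RNA was unevenly spread over the genes. H2bc4 alone made up 59.47% of the summed CPM of the NC libraries, with 139 ± 24.1 CPM (SD, n = 18). H2ac19 followed with 35.4 ± 7.33 CPM and H2ac18 with 21.3 ± 15.6 CPM. These 3 genes held 83.7% of the NC sum and 81.2% of the LPS sum on day 7. Per kilobase of annotated exon, the NC level was 120 CPM for H2bc4, 67.0 for H2ac19, 36.3 for H2ac18 and 20.5 for H2bc8. Every other gene lay below 5 on that scale, among them H3c15 at 4.36, H4c9 at 2.44 and H4c8 at 2.41. H2bc8 is an H2B gene outside the rule for named genes and, like H2ac18, was chosen after its level was seen. The 4 genes without a stem-loop in a long annotated end held 61.5% of the NC sum, nearly all of it from H2bc4, and their median level per kilobase, 0.846, hid a range from 0.196 to 120. The 23 genes that end close to the stem-loop had a median of 0.200 CPM per kilobase and a range from 0.0439 to 67.0. The 16 with a longer end had a median of 0.279 and a range from 0.0625 to 20.5. The ranges of these classes overlapped.

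Some partners of a head-to-head pair differed widely in level although their starts are close. H2bc4 and H2ac6 begin 239 bases apart, and per kilobase the NC level of H2bc4 was 760 times that of H2ac6. H2bc8 and H2ac8, 179 bases apart, differed by 50.4 times. In the other 10 pairs the H2B gene stood at 0.996 to 6.79 times the H2A gene, at levels per kilobase under 1.5. H2ac6, H2ac8 and these pairs were named for their position, not by the rule for named genes.

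On day 7, averaged over the 6 ZTs, 17 of the 35 tested histone genes were higher in LPS livers and 0 were lower (edgeR quasi-likelihood test, adjusted p under 0.05 over 16544 genes). Of all tested genes 5.53% were called higher. The median log2 change of the 35 was 0.89, beside 0.01 over all tested genes. The 35 include genes that passed the filter only through their level in LPS, so this median is conditional on the filter. The genes called were 6 of 9 tested H4, 5 of 8 H3, 3 of 9 H2A and 3 of 9 H2B genes. The H2B calls include the copies Hist1h2bq and Hist1h2br, which had nearly the same counts but are counted here as separate genes. Of these calls 3 H3 genes (H3c7, H3c8 and H3c11) and 2 H2A genes (H2ac10 and H2ac12) passed the filter only through their level in LPS, so their calls are conditional on it. Over genes that pass in NC alone, the calls were 6 of 8 H4, 2 of 4 H3, 1 of 6 H2A and 3 of 8 H2B genes. Without the filter all 59 could be fitted, and 15 were called, all higher, each of them among the 17. Without the filter 51 of the 59 estimates were above 0. Of the 26 genes that pass the filter in NC alone, 12 were called. Leaving out single libraries gave between 15 and 20 calls.

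H4 genes had the largest ratio of summed levels among the 4 families, at a low level. The summed H4 level ran from 2.38 to 9.54 CPM over 18 NC libraries, with a median of 4.90, and from 5.91 to 22.5 CPM over 18 LPS libraries, with a median of 15.1. The ranges overlapped, but 14 LPS libraries lay above the highest NC library. The LPS mean was 2.74 times the NC mean, 14.6 ± 5.20 against 5.34 ± 2.30 CPM (SD, n = 18 each). The same ratio was 1.41 for H2A, 1.14 for H2B, 1.21 for H3 and 1.25 for all 59 genes. These sums are descriptions without a test, and the whole sum follows H2bc4: without that gene the ratio of all was 1.42. Without H2bc4, H2ac18, H2ac19 and H3c14, a set chosen after seeing the data, it was 1.51. H3c14 held 4.57 CPM of the mean H3 sum of 10.3 CPM in NC, with a ratio of 0.970, and its counts varied widely between libraries.

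**Figure D1:**
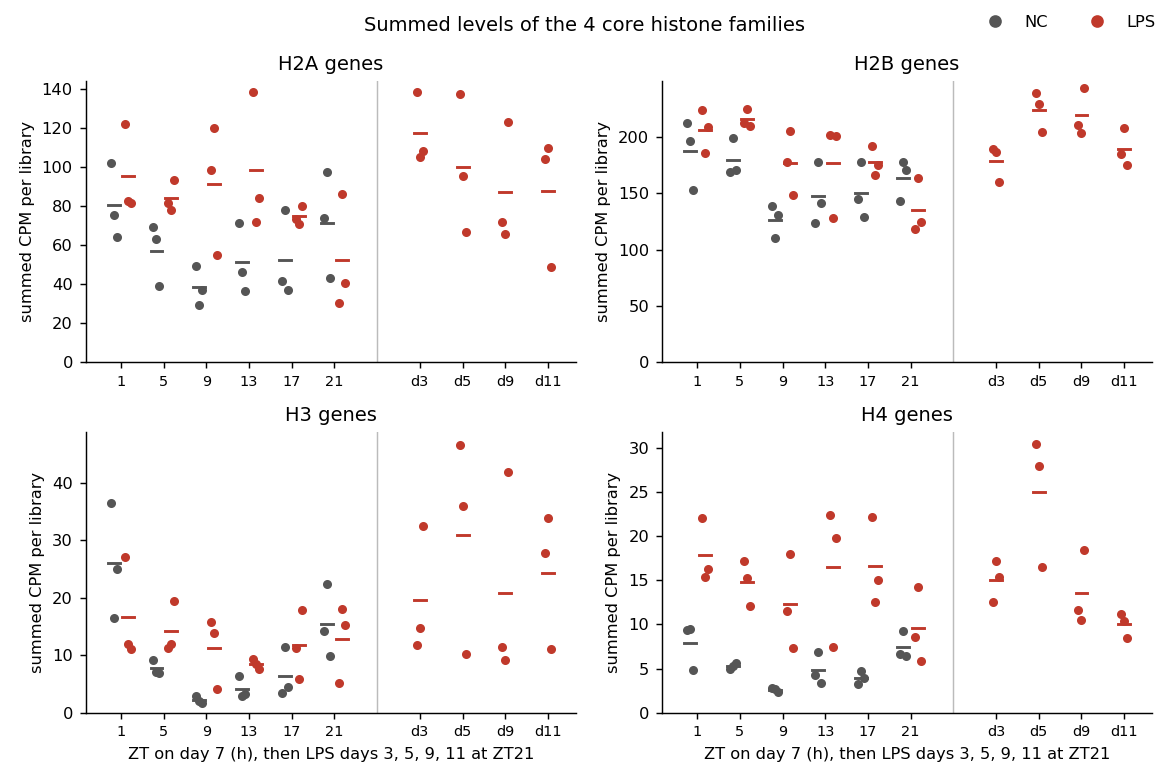
Summed CPM (vertical axis, starting at 0) of the H2A, H2B, H3 and H4 genes in each of 48 libraries, by ZT on day 7 and then by LPS day at ZT21; points are libraries, short lines are group means, NC grey and LPS red. H4 sums of the 18 LPS libraries on day 7 reach from 5.91 to 22.5 CPM and those of NC from 2.38 to 9.54, while H2B sums of the arms overlap over most of their range.

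H4c8, which encodes histone H4 and ends 46 bases past its stem-loop, had the smallest p-value of all the genes tested. Its level was 0.573 CPM at the lowest, 0.959 at the median and 2.41 at the highest in NC, and 0.899, 4.66 and 11.9 CPM in LPS. All LPS libraries but 1 lay above the highest NC library; the exception was ZT21 replicate 3. The log2 change was 2.19 ± 0.21 (SE), adjusted p = 5.63e-07, with 17 of 18 LPS libraries above the NC mean of their ZT. H4c9, another H4 gene, with 330 bases annotated beyond its stem-loop, ran from 0.545 over 1.81 to 2.78 CPM in NC and from 1.71 over 3.68 to 7.68 CPM in LPS. Of the LPS libraries 15 exceeded the highest NC library, and all 18 exceeded the NC mean of their ZT. The change was 1.22 ± 0.14, adjusted p = 2.48e-05. H4c11 ran from 0.0545 over 0.172 to 0.512 CPM in NC and from 0.142 over 0.738 to 2.42 CPM in LPS, a change of 1.91 ± 0.27, adjusted p = 0.000215. In LPS 11 libraries lay above the highest NC value. The other H4 genes called were Hist1h4m, Hist1h4n and H4c12, with log2 changes of 1.76, 1.57 and 1.24. H4c14 had 0.68 ± 0.25 and did not pass, adjusted p = 0.0820. Without NC ZT9 replicate 2 its change was 0.92 and it passed.

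**Figure D2:**
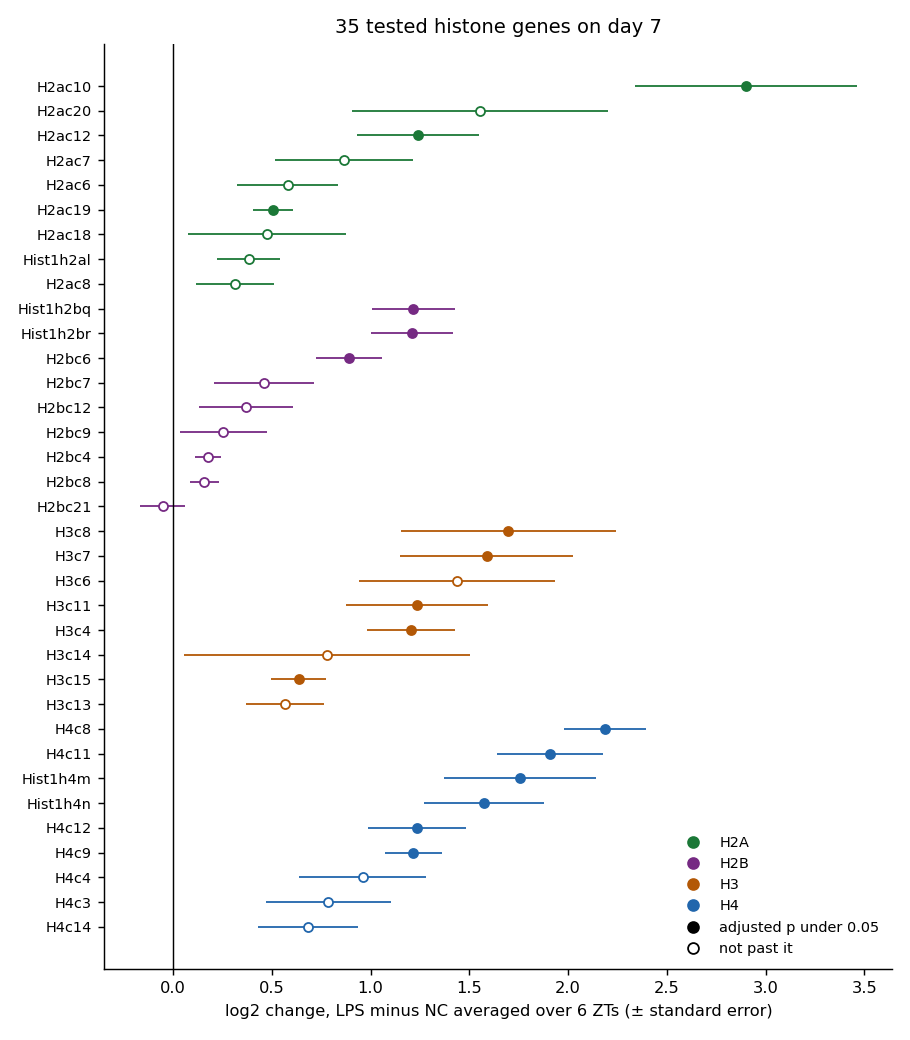
Log2 change of the 35 tested histone genes, LPS minus NC averaged over 6 ZTs on day 7 (horizontal axis), with bars of 1 standard error, ordered by family and size; filled points passed an adjusted p of 0.05. All 17 filled points lie above 0, and H2bc21 at −0.05 is the only tested gene with an estimate below 0.

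Among H3 genes, which package DNA as partners of H4, most of the summed level came from H3c14 and H3c15. H3c15 ran from 0.980 over 3.46 to 12.7 CPM in NC and from 2.46 over 5.28 to 11.9 CPM in LPS. The ranges overlapped almost fully, and the change of 0.64 ± 0.14 rests on the comparison within ZT, where 14 of 18 LPS libraries were above the NC mean (adjusted p = 0.00724). H3c4 ran from 0.0680 over 0.224 to 0.819 CPM in NC and from 0.171 over 0.580 to 1.15 CPM in LPS, with 7 LPS libraries above all of NC. Its change was 1.20 ± 0.22, adjusted p = 0.00198. H3c7, H3c11 and H3c8, all with a mean under 0.3 CPM, changed by 1.59, 1.24 and 1.70. All of them entered the test only through LPS, and without the filter H3c11 and H3c8 were not called (adjusted p = 0.0548 and 0.0862). The call of H3c8 (adjusted p = 0.0472) was lost in 28 of 36 fits that left out a library and that of H3c11 in 5. H3c13 had a change of 0.57 ± 0.20, adjusted p = 0.0641, and passed without LPS ZT1 replicate 2.

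Of the H2A genes, H2ac19 carried most counts. It ran from 22.8 over 35.4 to 51.6 CPM in NC and from 21.9 over 49.0 to 77.7 CPM in LPS. The ranges overlapped, with 8 LPS libraries above the highest NC library. Its change was 0.51 ± 0.10, adjusted p = 0.00394. H2ac10 had the largest fitted change, 2.90 ± 0.56 (adjusted p = 0.00307), but at a median of 3 counts a library, and 0 counts in the 3 NC libraries of ZT9. Without LPS ZT21 replicate 2 it was no longer called, with a change of 2.15. H2ac12, also with a median of 3 counts, changed by 1.24 ± 0.31, adjusted p = 0.0137.

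Among H2B genes, H2bc6 and the copies Hist1h2bq and Hist1h2br rose. H2bc6 ran from 0.576 over 1.32 to 3.31 CPM in NC and from 0.823 over 2.36 to 5.77 CPM in LPS. The arms overlapped, and 5 LPS libraries lay above all of NC. Its change was 0.89 ± 0.17, adjusted p = 0.00202. Hist1h2bq and Hist1h2br changed by 1.22 ± 0.21 and 1.21 ± 0.21, both with adjusted p = 0.00108. Their counts were equal in 24 of 48 libraries and never differed by more than 5, so they are hardly separate measurements. H2bc4, the most abundant gene, ran from 95.8 over 140 to 181 CPM in NC and from 102 over 165 to 195 CPM in LPS. The change of 0.18 ± 0.07 did not pass, adjusted p = 0.0865. It passed without LPS ZT13 replicate 2, at 0.21, and without the 4 libraries set apart, at 0.26. H2bc8 and H2bc21, named after their values were seen, had changes of 0.16 ± 0.07 and −0.05 ± 0.11 and did not pass.

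**Figure D3:**
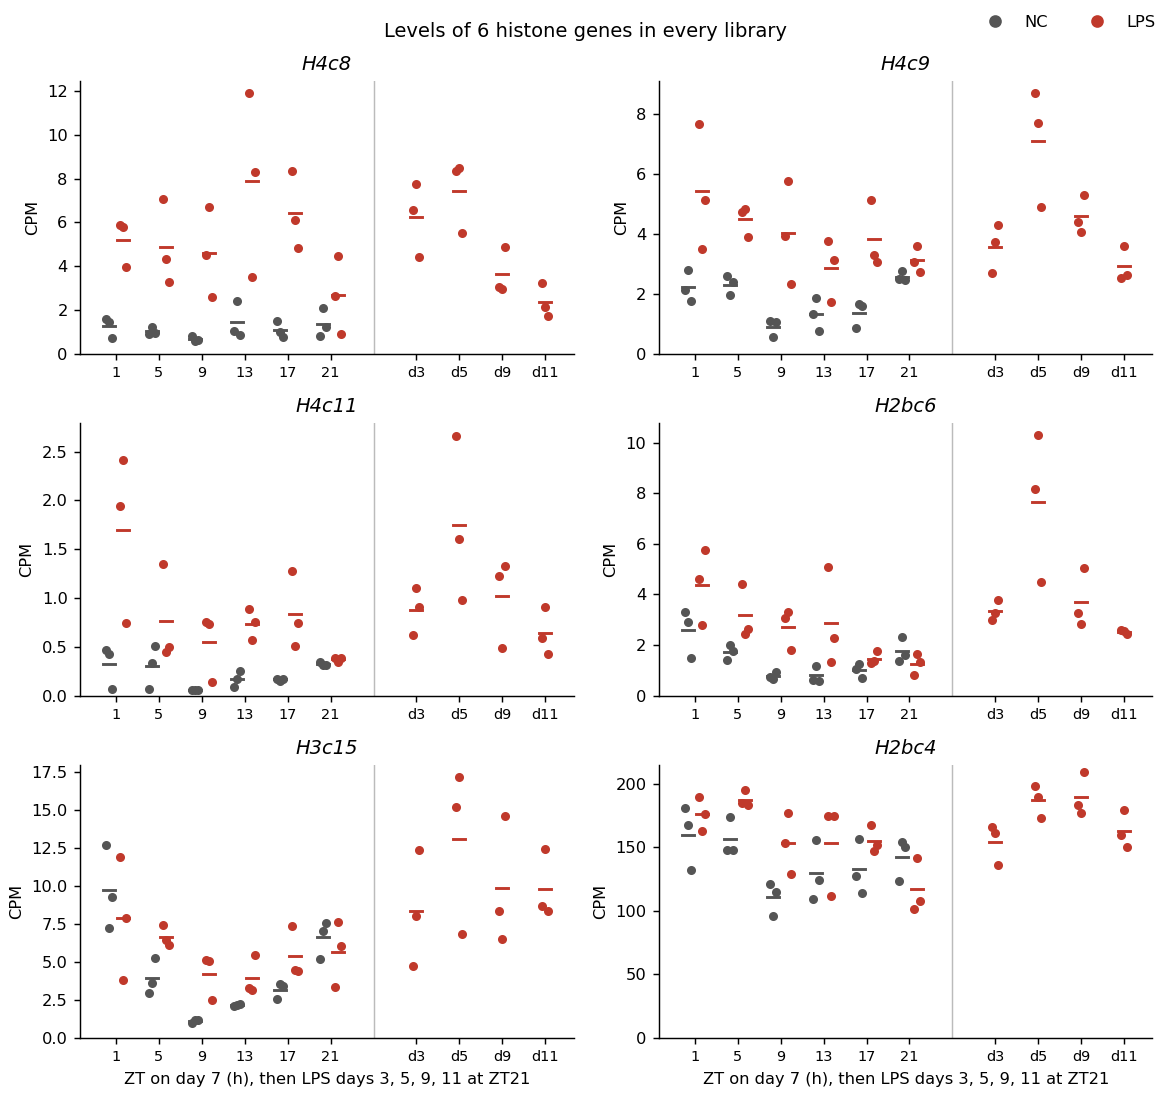
CPM (vertical axis, starting at 0) of H4c8, H4c9, H4c11, H2bc6, H3c15 and H2bc4 in every library, by ZT on day 7 and then by LPS day at ZT21; points are libraries, short lines are group means, NC grey and LPS red. H4c8 separates the arms at most ZTs but not at ZT21, H3c15 of NC falls to 0.980 CPM at ZT9, and H2bc4 shows broad overlap between the arms.

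Single times of day gave fewer calls, and those clustered at ZT9 and ZT13. At ZT9 the genes higher in LPS were H4c9, H3c15, H4c8, H4c14 and H2bc6, 5 of 35, beside 0.314% of all tested genes. At ZT13 they were H4c8, H2bc6, H2ac10 and H3c4, 4 of 35, beside 1.85%. None was lower at either time. At ZT9 H4c8 stood at 0.796, 0.573 and 0.610 CPM in the NC libraries and at 4.51, 6.72 and 2.61 CPM in LPS, with no overlap, a change of 2.79 ± 0.53 and adjusted p = 0.0164. H3c15 at ZT9 had 0.980, 1.15 and 1.16 CPM in NC and 5.12, 5.06 and 2.46 CPM in LPS, again with no overlap, a change of 1.93 ± 0.36 and adjusted p = 0.0162. At ZT13 H4c8 had 1.02, 2.41 and 0.828 CPM in NC and 11.9, 3.49 and 8.32 CPM in LPS, a change of 2.48 ± 0.50 and adjusted p = 0.00780. The values did not overlap. The ZT9 count fell to 0 without NC ZT9 replicate 2 or LPS ZT9 replicate 2, to 1 without NC ZT9 replicate 1, to 2 without LPS ZT9 replicate 1, and to 3 without NC ZT9 replicate 3, NC ZT5 replicate 2 or LPS ZT5 replicate 3. The ZT13 count fell to 0 without NC ZT13 replicate 3, to 1 without NC or LPS ZT13 replicate 1, and to 2 without NC ZT13 replicate 2, NC ZT5 replicate 1, LPS ZT5 replicate 1 or 2, or LPS ZT17 replicate 1.

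At ZT1, ZT5 and ZT17 edgeR called 0 of 35 histone genes, where 0.314%, 0.0121% and 0% of all tested genes were called higher. At an unadjusted p under 0.05 the counts were 4, 17 and 16, and DESeq2 called 3, 1 and 2. Leaving out single libraries gave 1 call at ZT1 (LPS ZT1 replicate 1 or ZT13 replicate 2), 2 calls at ZT1 (LPS ZT1 replicate 3) and 1 call at ZT17 (NC ZT13 replicate 2, or LPS ZT13 replicate 2, ZT21 replicate 2 or ZT21 replicate 3). The median change of the 35 was nonetheless 0.88 at ZT5 and 1.16 at ZT17, as at ZT9 (1.42) and ZT13 (1.12), beside 0.29 at ZT1. Medians at single ZTs also include the genes that passed the filter only through LPS. At ZT21 the median was −0.21 and 1 gene was called, H2ac12, beside 5.52% of all tested genes. H2ac12 stood at 0.0629, 0.0623 and 0.0951 CPM in NC and at 0.540, 0.383 and 0.218 CPM in LPS at that time, a few counts a library, and the values did not overlap. Its change was 2.33 ± 0.73, adjusted p = 0.0438, and the count fell to 0 in 26 of 36 fits that left out a library. Without LPS ZT21 replicate 2, 3 genes were called, 1 higher and 2 lower. The test of whether the LPS effect differed between ZTs called 0 of 35 histone genes (edgeR, 9 at an unadjusted p under 0.05; no other tool was run), beside 1.7% of all genes. Leaving out single libraries raised that count to 4 (LPS ZT21 replicate 2), 3 (LPS ZT13 replicate 2), 2 (LPS ZT1 replicate 1 or 2) or 1 (LPS ZT9 replicate 3 or ZT17 replicate 2). Differences between ZTs in the size of the effect are therefore given as values only.

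The livers of LPS ZT21 differed from one another. The summed level of all 59 genes was 162, 282 and 186 CPM in replicates 1, 2 and 3, and 238, 307 and 230 CPM in the NC libraries. Replicates 1 and 3, 2 of the libraries set apart, had the highest sums of 30 S phase genes in the series, 1176 and 788 CPM, where no other library exceeded 408 CPM. S phase genes include Mcm2 to Mcm7, of the replicative helicase, Pcna, the replication clamp, and Mcm10, a replication initiation factor. Mcm10 was the most abundant of them in NC, at 82.6 CPM, with log2 changes of −1.43 on day 7 (ZT21 fit), −2.13 on day 3 and −2.61 on day 5. On day 7 it went against the other S phase genes called, which were all higher. On days 3 and 5 every S phase gene called was lower. In LPS ZT21 replicates 1 and 3 the histone sum ranked 47 and 43 of 48. LPS day 5 replicates 1 and 2 had S phase sums of 189 and 169 CPM, ranks 46 and 47, and histone sums of 454 and 388 CPM, ranks 1 and 4. Replicate 3 of that day had an S phase sum of 289 CPM, rank 20, and a histone sum of 297 CPM, rank 23. Mcm10 and Tk1, the most abundant S phase genes in NC, both fell on day 5, while the median change over the 30 genes was 0.22. Without Mcm10 and Tk1, a sum chosen after seeing the data, day 5 replicates 1 and 2 stood at 151 and 136 CPM, ranks 41 and 48. Day 5 replicate 3 stood at 239 CPM, rank 5, and LPS ZT21 replicates 1 and 3 at 1091 and 713 CPM, ranks 1 and 2. Over the histone genes, leaving out H2bc4, H2ac18, H2ac19 and H3c14 gave ranks 1, 2 and 8 to day 5 replicates 1, 2 and 3. It gave ranks 39 and 37 to LPS ZT21 replicates 1 and 3. Without LPS ZT21 replicates 1 and 3, the averaged comparison called 13 histone genes, all higher and all among the 17. In the ZT21 fit, 26 of 30 S phase genes were higher in LPS on day 7 and 1, Mcm10, was lower, where 597 of 16101 genes were lower. On day 3, 0 were higher and 4 lower, beside 1651 lower genes in all, and on day 5, 0 were higher and 2, Mcm10 and Tk1, lower, beside 914.

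**Figure D4:**
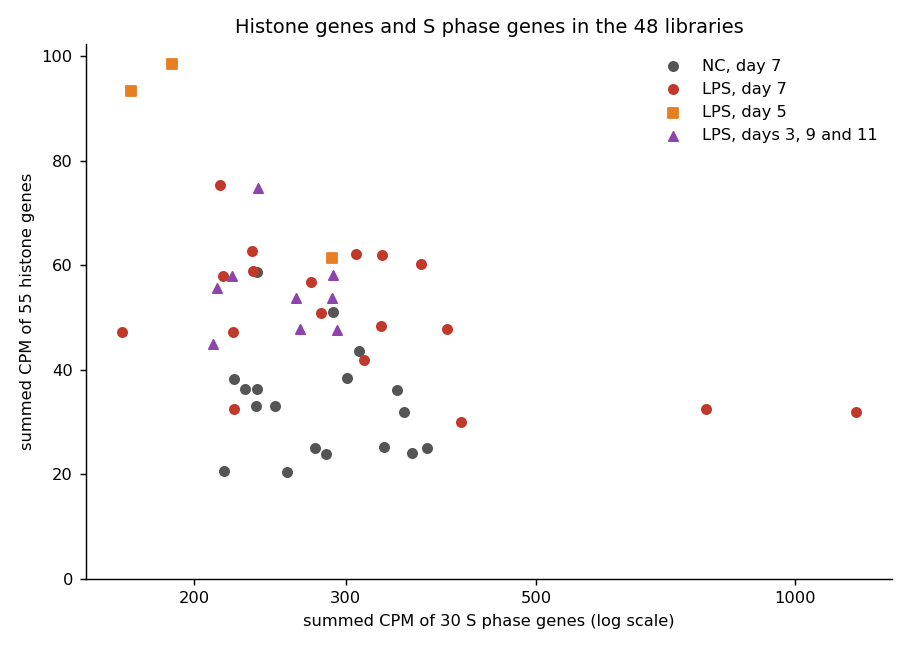
Summed CPM of 55 histone genes, leaving out H2bc4, H2ac18, H2ac19 and H3c14 (vertical axis), against summed CPM of 30 S phase genes (horizontal axis, log scale) in the 48 libraries, NC grey, LPS by day. The 2 libraries at the far right, LPS ZT21 replicates 1 and 3 at 1176 and 788 CPM, hold 32.0 and 32.4 CPM of histone genes, and the 2 highest histone sums, 98.4 and 93.3 CPM, belong to LPS day 5 libraries at the left. LPS day 5 replicate 3 holds 61.3 CPM at an S phase sum of 289 CPM.

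At ZT21 over the days, day 5 had the most calls. The H4 sum was highest there, at 3.35 times NC, while the H2A sum was highest on day 3, with a mean of 117 CPM against 99.9 CPM on day 5. The H2A sums include H2ac18, whose counts varied between libraries without following the groups. It had 2523, 1379 and 2039 counts on day 3 and 2072, 980 and 291 on day 5. H2ac19 had 2700, 2618 and 2284 counts on day 3 and 2545, 2356 and 2086 on day 5. Each day was set against the same 3 NC libraries, so the comparisons share their controls. On day 5, 9 of 35 tested genes were higher and 0 lower, beside 5.91% of 16101 genes called higher, and the median change was 1.33. They were H2bc6, H4c9, H4c11, H4c8, H3c11, H4c3, H2bc9, H2bc8 and H2bc21, of which H4c3, H2bc9, H2bc8 and H2bc21 are named only as calls. The NC libraries held 3, 8 and 3 counts of H3c11 and 5, 9 and 6 of H4c3. Which genes pass the filter in these NC libraries alone was not worked out. The calls and the median on day 5 may therefore depend on genes that entered through LPS. On day 3, 4 genes were higher, H4c8, H4c11, H2ac19 and H2bc6, beside 10.3% of all genes, a share like that among the histone genes. On days 7, 9 and 11 edgeR called 0, beside 5.71%, 0.143% and 0.0683% of all genes. At an unadjusted p under 0.05 the counts were 2, 8 and 2, and DESeq2 called 0 on each of these days.

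H2bc6 at ZT21 had 1.384, 2.34 and 1.59 CPM in NC and 8.18, 10.3 and 4.48 CPM on day 5, with no overlap, a change of 2.11 ± 0.32 and adjusted p = 0.000736. It stood at 3.00, 3.26 and 3.77 CPM on day 3 and at 0.823, 1.64 and 1.34 CPM on day 7. H4c9 had 2.49, 2.77 and 2.44 CPM in NC and 8.69, 7.69 and 4.88 CPM on day 5, again apart, a change of 1.47 ± 0.23 and adjusted p = 0.00118. H4c8 had 0.787, 2.09 and 1.21 CPM in NC, 6.54, 7.74 and 4.41 CPM on day 3, 8.32, 8.46 and 5.49 CPM on day 5, 3.03, 2.94 and 4.88 CPM on day 9, and 3.22, 2.11 and 1.71 CPM on day 11. It changed by 2.19 ± 0.47 on day 3 (adjusted p = 0.00434) and by 2.45 ± 0.47 on day 5 (adjusted p = 0.00505). Day 11 overlapped NC and day 9 lay above it without passing the test. The day 5 count fell to 4 without NC ZT21 replicate 3 or LPS day 5 replicate 2, and to 5 without NC ZT21 replicate 2 or LPS day 5 replicate 1. It rose to 17 without LPS day 5 replicate 3 and to 14 without LPS day 7 ZT21 replicate 2. The day 3 count fell to 1 without NC ZT21 replicate 3 or LPS day 3 replicate 2 or 3, and to 2 without NC ZT21 replicate 1, LPS day 3 replicate 1, day 5 replicate 1, day 9 replicate 1 or 2, or day 11 replicate 1 or 2. On day 7 it was 4, all lower, without LPS ZT21 replicate 2, and 1 without LPS day 9 replicate 3.

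A test among the 5 LPS days, which leaves out the shared NC libraries, called 12 of 35 histone genes, beside 27.4% of all genes. They were H2bc6, H4c9, H2bc8, H2bc4, H2ac19, H4c11, H2bc9, H3c4, H2bc21, H4c3, H4c8 and H3c11. H2bc4 stood at 166, 162 and 136 CPM on day 3, 198, 190 and 173 CPM on day 5, 102, 142 and 108 CPM on day 7, 184, 177 and 209 CPM on day 9, and 160, 179 and 150 CPM on day 11 (adjusted p = 0.00608). Its lowest values, 102 and 108 CPM, came from LPS ZT21 replicates 1 and 3, which were set apart, and the other day-7 library lay inside the range of day 3. Without those replicates 5 genes were called, H2bc6, H2bc9, H3c4, H4c8 and H4c9, and H2bc4 was not. The count was 7 without LPS day 5 replicate 1.

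In NC livers 11 of 35 histone genes had a 24 h rhythm on day 7, beside 22.5% of all genes (edgeR, cosine and sine terms). All 11 fitted peaks fell between ZT22.9 and ZT2.79, around the end of the dark phase and the start of the light phase. The log2 amplitudes, measured from the mean to the peak, ran from 0.54 to 2.54. The highest was that of H2ac10, which had 0 to 9 counts in an NC library and passed the filter only through LPS. The next was 1.34, for H3c15. H3c15 had the smallest p-value: its 3 NC libraries held 12.7, 7.27 and 9.28 CPM at ZT1, 2.93, 3.60 and 5.24 at ZT5, 0.980, 1.15 and 1.16 at ZT9, 2.10, 2.14 and 2.23 at ZT13, 2.57, 3.54 and 3.38 at ZT17, and 5.22, 7.07 and 7.55 at ZT21. The libraries of ZT1 and ZT9 did not overlap, and the fit gave an amplitude of 1.34 with its peak at ZT23.2 (adjusted p = 7.73e-07). H3c13, H3c4, Hist1h2bq, Hist1h2br, H2bc6, H4c12, H4c9, H2ac10, H4c14 and H2bc21 were the others.

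In LPS livers 3 genes had a rhythm, H2ac20, H2bc7 and H2bc6, beside 16% of all genes. H2ac20 and H2bc7 are named only as calls. Each of the 11 genes rhythmic in NC had a smaller fitted amplitude in LPS, for H3c15 0.45 against 1.34. Choosing genes by their NC rhythm favours a larger amplitude in NC, so no conclusion is drawn from this. The other tested genes went either way, with H2ac20 and H2bc7 among those with a larger amplitude in LPS. Without the 4 libraries set apart H3c15 was called rhythmic in LPS too, adjusted p = 0.0135. The test of the difference in rhythm called 0 of 35 (edgeR, 10 at an unadjusted p under 0.05; limma-voom also called 0), beside 0.169% of all genes, so a loss of rhythm in LPS is not shown. For these 11 genes the adjusted p of the difference ran from 0.0972 to 0.816. The LPS count was 5 without ZT1 replicate 2 and 1 without ZT13 replicate 1, ZT13 replicate 3, ZT21 replicate 2 or ZT21 replicate 3.

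Neighbouring copies on chromosome 3 varied between libraries in a way that the groups did not follow. H2ac18 (chr3:96245497-96246082, + strand) and H2ac19 (chr3:96239749-96240276, − strand) are near-identical H2A genes. The count of H2ac18 was 0.111 to 0.249 times that of H2ac19 in 19 libraries and 0.762 to 0.979 times in 24, with 5 libraries spread from 0.416 to 0.698. The low range held 8 NC and 11 LPS libraries from 13 groups, and the high range 9 NC and 15 LPS libraries from all 16 groups. H2ac19 itself had 797 to 2346 counts in the low range and 790 to 2700 in the high range. H3c14, an H3 gene next to H2ac18, had 2 to 28 counts in 20 libraries and 77 to 921 in the other 28. In the low range of the H2A ratio it had 2 to 96 counts. H2ac20, another H2A gene of the region, had 0 to 6 counts in 34 libraries and 24 to 108 in 14, and these 14 came from both ends of the ratio. How the authors' counting treated reads that match more than 1 copy is not given, and its part in these counts was not tested. H2ac18 and H3c14 were named after their counts were seen. Their averaged LPS changes were 0.48 ± 0.40 and 0.78 ± 0.72, neither past the threshold.

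**Figure D5:**
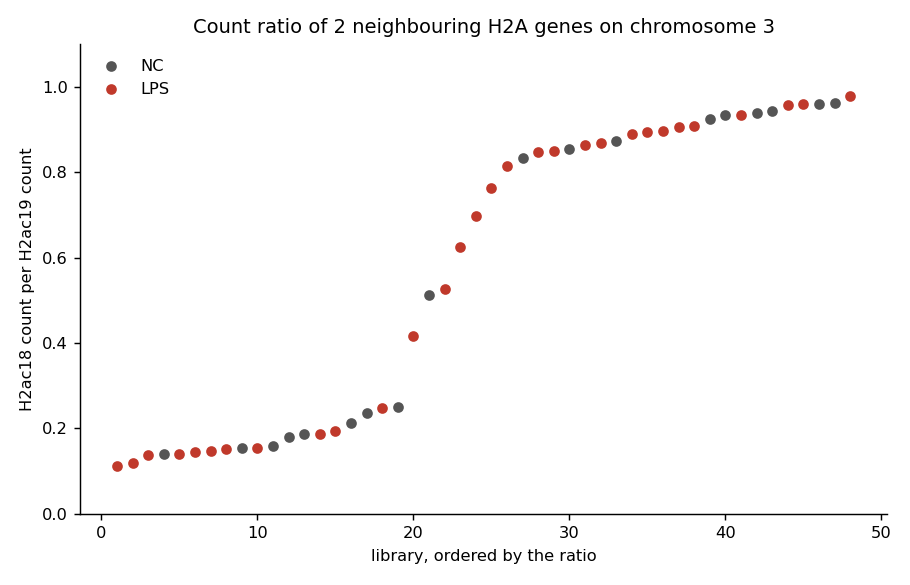
Count of H2ac18 per count of H2ac19 (vertical axis) in the 48 libraries, ordered by that ratio (horizontal axis), NC grey and LPS red. Low values of 0.111 to 0.249 occur in 19 libraries and high values of 0.762 to 0.979 in 24, and both arms occur at each end.

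Counts of other copies were compared as well. Hist1h2ao and Hist1h2ap, outside the named genes, had equal counts in 44 of 48 libraries and at most 4 counts. Hist1h4m and Hist1h4n, both called in the averaged comparison, had equal counts in 4 libraries and differed by up to 62.

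Genes that work with histones were followed in lists. Linker histones bind the DNA between the spools, and H1f2, H1f3 and H1f4 are replication-dependent like the core genes. Of 5 tested linker histone genes 3 were higher in LPS averaged over the ZTs and 0 lower, with a median change of 0.67. H1f3 rose by 1.96 and H1f4 by 1.43 on the log2 scale, and H1f2, the most abundant of the 3, from 58.0 ± 21.3 to 91.8 ± 40.1 CPM (SD, n = 18 each), a change of 0.67 with adjusted p = 0.000887. H1f0, a replacement linker histone of resting cells, had a change of −0.07 and did not pass. On day 5, 4 of the 5 were higher, and the change was 3.30 for H1f3 and 3.22 for H1f4.

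Replacement core histones, most of which are not limited to S phase, moved less. Of 10 tested 2 were higher and 0 lower in the averaged comparison: Cenpa, the H3 of centromeres, by 0.53 (adjusted p = 0.0139), and H2az1, a variant of H2A, by 0.24 (adjusted p = 0.0366). H3f3a and H3f3b, which encode H3.3, had changes of −0.03 and 0.00. Of 23 genes of histone RNA processing 0 were higher and 1 lower, Ncbp2 of the cap-binding complex, by −0.16. Slbp went from 11.8 ± 1.43 to 13.8 ± 4.47 CPM, a change of 0.20 that did not pass (adjusted p = 0.104). At ZT21 the change of Slbp was 0.93 (adjusted p = 0.00604), where the core genes had a median of −0.21. Of 16 histone chaperones 2 were higher and 0 lower, Cabin1 by 0.17 and Hat1, which acetylates new H4, by 0.39. Of 30 S phase genes 14 were higher and 0 lower, with a median of 0.56, and of 20 mitosis genes 14 and 0, with a median of 1.13. Among the former were Pola1, E2f1 and Mcm5, and among the latter Gtse1, Ccnb2, Cenpe and Bub1b. By single ZT in the day-7 fit, 27 S phase and 18 mitosis genes were higher at ZT21, where LPS replicates 1 and 3 were set apart. At ZT13 1 S phase gene and 0 mitosis genes were called, and at ZT1, ZT5, ZT9 and ZT17 0 of either list.

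Markers of other cells moved with LPS as well. Of 12 neutrophil and myeloid precursor genes 10 were tested and 7 were higher, led by Mpo and Elane. Their sum ran from 5.18 to 10.9 CPM in NC and from 6.54 to 257 CPM in LPS on day 7, and Ctsg and Ms4a3 had 0 counts in all NC libraries. Without the 4 libraries set apart the highest LPS sum was 17.2 CPM, and 17 histone genes were then called, 13 of them among the original 17. Of 12 Kupffer cell and macrophage genes 2 were higher, Marco and Lyz2, with sums of 164 to 370 CPM in NC and 167 to 714 CPM in LPS. Of 12 genes of T, NK and B cells 2 were higher, Jchain and Gzma, with sums of 3.49 to 12.9 and 5.30 to 20.3 CPM. Of 12 erythroid genes 9 were tested and 2 were higher, Klf1 and Slc4a1, with sums of 249 to 1689 and 149 to 2425 CPM. Markers also changed at ZT21 on days 3 and 5, where 4 and 9 histone genes were called. On day 3, 10 of 12 Kupffer cell genes, 8 of 12 lymphocyte genes and 9 of 12 myeloid genes were higher, and 5 of 9 erythroid and 3 of 12 hepatocyte genes were lower. On day 5, 5 Kupffer cell, 3 lymphocyte and 7 myeloid genes were higher, and 1 erythroid and 3 hepatocyte genes were lower. In the same fit on day 7, 3 Kupffer cell, 1 lymphocyte and 7 myeloid genes were higher and 5 hepatocyte genes lower. There 0 histone genes were called. The myeloid sum on day 5 was 21.2, 19.6 and 17.7 CPM. None of the markers of macrophages, lymphocytes or erythroid cells was at 0 throughout either arm of day 7. The part of these cells in the histone counts was not tested.

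RNAs without a poly(A) tail, such as small nucleolar RNAs, give a measure of what passes oligo(dT) capture without a tail. Their sum ran from 9.28 over 15.7 to 25.03 CPM in NC and from 8.88 over 16.2 to 31.5 CPM in LPS on day 7. Pooled over the ZTs, the arms overlapped over nearly the whole range. At ZT13 they did not overlap, with 20.63, 16.99 and 16.35 CPM in NC and 26.59, 31.45 and 27.34 CPM in LPS. At ZT5 NC had 14.3, 10.82 and 9.277 CPM and LPS 14.48, 17.14 and 16.34 CPM, also without overlap. The arms overlapped at ZT1, ZT9, ZT17 and ZT21. On day 5 the sum was 12.9, 12.03 and 9.39 CPM. Its part in the histone counts was not tested.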

How the data were processed

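Liver poly(A) RNA of 48 libraries was analysed from whole-number counts, 1 row per gene symbol, that the authors deposited without scaling between libraries. Per the submitters' processing notes, the tools were STAR 2.5.2b, StringTie 2.2.1, DESeq2 1.38.1, SAMtools 1.3.1 and FastQC 0.11.5, with build GRCm38 and no roles given. Per the labels' protocols, mRNA was captured on oligo(dT) beads and second strands were marked with dUTP. The sources used here do not give the counting step, its strand setting or its treatment of reads shared by copies.

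The test was edgeR 4.0.16 under R 4.3.3 (filterByExpr, TMM, robust quasi-likelihood test, Benjamini-Hochberg over all tested genes at 0.05). The 36 day-7 libraries shared 1 model with 24 residual degrees of freedom, the 18 ZT21 libraries another with 12, and rhythms a cosine model. The fit was tested on simulated data. Alternatives used DESeq2 1.42.0 and limma 3.58.1. Figures were drawn with matplotlib 3.10.9. Stem-loops and motifs were searched in GENCODE transcripts and RefSeq promoters.

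Up to 20 members were named: those called in a comparison or with a mean of at least 1 CPM, by smallest p of the averaged effect; exceptions are stated. The members, lists and alternatives were chosen with earlier results of these data known. Same-numbered NC and LPS libraries did not deviate together. The closest pair of replicates, day 9 replicates 1 and 2, had a median chi-square of 1.43 per gene, above the 0.455 of sampling noise, so none was merged. No column was left out.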

Additional observations from a re-analysis of the deposited data

Results flagged for a closer look

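The summed H2B level in LPS livers of ZT21 on day 7 stood out in direction. It was 118, 163 and 125 CPM, every library below the NC mean of 164 CPM, a ratio of 0.827, while in 6 other LPS groups every library was above the NC mean of its ZT. This difference between groups was not tested.

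The test among the 5 LPS days at ZT21 found that the level differed by day for 12 of 35 histone genes, or 34.3%, beside 27.4% of all genes. The adjusted p-values were 0.000431 for H2bc6, 0.00276 for H4c9, 0.00355 for H2bc8, 0.00608 for H2bc4, 0.00834 for H2ac19 and 0.0110 for H4c11. They were 0.0121 for H2bc9, 0.0123 for H3c4, 0.0169 for H2bc21, 0.0261 for H4c3, 0.0277 for H4c8 and 0.0400 for H3c11. Without LPS ZT21 replicates 1 and 3 only H2bc6, H2bc9, H3c4, H4c8 and H4c9 of these 12 were called. Groups of 3 libraries were not screened for outlying values.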

How the results depend on the processing

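The averaged day-7 count of 17 stayed within 1.5 times under every alternative: 13 without LPS ZT21 replicates 1 and 3 (added after seeing the data), 14 with a minimum log2 change of 1, 15 without the filter, 17 with RLE scaling and without the 4 libraries set apart, and 20 with DESeq2 or all 48 libraries in 1 fit. No direction reversed. Counts at single times and days moved more, and the cause was not tested. DESeq2 called 3 at ZT1, 1 at ZT5, 8 at ZT9, 8 at ZT13, 2 at ZT17 and 16 on day 5. Without the filter the counts were 3 at ZT9, 2 at ZT13, 0 at ZT21, 1 on day 3 and 1 for the LPS rhythm, with more genes tested. Without the 4 libraries set apart they were 1 at ZT5, 8 at ZT9, 7 at ZT13, 2 at ZT17, 0 at ZT21 and 5 among LPS days. With the 6 compared libraries alone they were 1 at ZT5, 3 at ZT9, 0 at ZT13, 1 at ZT17 and 0 at ZT21. With all 48 libraries in 1 fit they were 1 on day 3 and 1 on day 7 at ZT21. Same-numbered libraries were not paired: correlations of their deviations over 18 pairs ran from −0.0678 to 0.0885. With the replicate block the averaged count was 17, with 16 genes shared, and the counts were 1 at ZT17, 0 at ZT21 and 1 for the LPS rhythm. Leaving out each library gave 15 to 20 for the averaged count, 0 to 2 at ZT1, 0 to 7 at ZT9, 0 to 6 at ZT13, 0 to 1 at ZT17, 0 to 3 at ZT21 and 0 to 4 for the interaction. By day it gave 1 to 4 on day 3, 4 to 17 on day 5, 0 to 4 on day 7, 7 to 16 among LPS days and 1 to 5 for the LPS rhythm. In the fit without the 4 libraries H2ac12, H3c7, H3c8 and H3c11 were not called (adjusted p = 0.0631, 0.0638, 0.121 and 0.103), and H2bc4, H3c13, H4c14 and H4c4 were. Family sums moved by less than their spread. Depth limits the 34 genes with a median under 10 counts: a missing call there is not evidence of equal levels. Counts of near-identical copies are uncertain singly.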
